A study of Mus musculus with 40 samples.

Results

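The potassium channel genes were described in 5 brain regions of mice with alanine or threonine at residue 92 of the Dio2 product, the deiodinase that makes active thyroid hormone inside cells. Members were taken from the gene symbols of the platform annotation: every symbol made of Kcn, one or more letters and a number was included, apart from Kcnj13 and Kcnj8. This gave 85 of the 19505 genes on the array, each with 1 row, and all 85 were found in the GRCm38.p6 gene table. The 40 arrays formed 10 groups of 4, Ala and Thr in each of amygdala, cerebellum, hippocampus, prefrontal cortex and striatum. Ala arrays held RNA from mice labelled Ala92D2HY and Thr arrays RNA from mice labelled Thr92D2HY. The letters HY are not explained in the labels. All mice were on the background spelled C56BL/6 in the labels, were 8 to 10 weeks old and were kept at 22 °C on chow with a 12-h light cycle, so no group was treated. The labels tie no array to an animal, a batch or a date, and p-values therefore reflect only array-to-array spread, part or all of which may be technical.

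Potassium channels let potassium leave or enter the cell along its gradient and so set the resting potential, end the action potential and shape its frequency. Voltage-gated pore subunits (Kv) open on depolarization, inward rectifiers (Kir) pass current best near rest, tandem-pore subunits (K2P) carry background current, and calcium- or sodium-activated subunits link the membrane to ion entry. Auxiliary subunits such as the KChIP, Kvβ, KCNE and BK β proteins change the gating or the surface level of the pores. In the brain, neurons of different regions are known for differing firing patterns, and glia use inward rectifiers to take up potassium.

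Promoters are shown for 4 members picked by hand. Kcnj12 and Kcnc1 were high in cerebellum, and their region means spanned 4.91 and 4.23 log2 units. Kcnj4 and Kcnip2 were low there, and their region means spanned 6.45 and 9.19. Each has 1 listed start in RefSeq, and each run covers 250 bases before to 50 after that start, written along the gene's strand. Capitals mark matches to the GC box, GGGCGG, or to the pentamer CCAAT, on either strand and with no overlap between matches.
Kcnj12 (GRCm38.p6, chr11:61065554-61065853, plus strand): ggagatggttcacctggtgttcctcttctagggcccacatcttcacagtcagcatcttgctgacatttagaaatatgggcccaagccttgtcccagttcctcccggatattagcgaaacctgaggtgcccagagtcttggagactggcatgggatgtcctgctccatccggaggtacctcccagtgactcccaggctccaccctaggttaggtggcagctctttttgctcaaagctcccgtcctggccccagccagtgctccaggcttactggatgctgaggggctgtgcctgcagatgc
Kcnc1 (GRCm38.p6, chr7:46396218-46396517, plus strand): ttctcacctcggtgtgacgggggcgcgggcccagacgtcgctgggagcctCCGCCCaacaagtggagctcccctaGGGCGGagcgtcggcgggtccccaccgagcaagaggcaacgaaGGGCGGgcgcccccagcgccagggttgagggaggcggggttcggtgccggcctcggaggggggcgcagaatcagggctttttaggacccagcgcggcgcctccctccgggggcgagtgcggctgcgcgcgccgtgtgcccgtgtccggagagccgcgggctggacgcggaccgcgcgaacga
Kcnj4 (GRCm38.p6, chr15:79505192-79505491, minus strand): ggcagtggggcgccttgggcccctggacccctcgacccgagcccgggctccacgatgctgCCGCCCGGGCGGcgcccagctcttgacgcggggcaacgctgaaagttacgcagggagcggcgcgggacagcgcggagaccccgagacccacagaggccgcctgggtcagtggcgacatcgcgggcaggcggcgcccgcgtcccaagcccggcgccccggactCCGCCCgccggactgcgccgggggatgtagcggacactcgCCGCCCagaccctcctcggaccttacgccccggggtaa
Kcnip2 (GRCm38.p6, chr19:45816014-45816313, minus strand): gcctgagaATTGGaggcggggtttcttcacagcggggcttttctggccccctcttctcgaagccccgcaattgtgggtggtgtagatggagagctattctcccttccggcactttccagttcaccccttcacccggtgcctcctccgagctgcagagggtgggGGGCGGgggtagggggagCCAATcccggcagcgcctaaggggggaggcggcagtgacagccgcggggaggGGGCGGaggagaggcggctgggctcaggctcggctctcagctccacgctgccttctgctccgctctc
The promoter of Kcnj12 held no GC box, with 57.0% G and C and 4 CpG dinucleotides. That of its relative Kcnj4 held 4 GC boxes, with 76.0% G and C and 41 CpG. Kcnc1 had 3 GC boxes, 74.7% G and C and 41 CpG, so Kcnj12 and Kcnc1, both high in cerebellum, had unlike promoters by these counts. Kcnip2 had 2 GC boxes and 2 CCAAT matches, 67.0% G and C and 18 CpG. None of the 4 windows held the TATA box letters TATAAA, the half-site of nuclear receptors AGGTCA, or the E-box letters CACGTG. Over the 89 listed promoters of 64 members, 48.3% held a GC box, against 35.7% of all 32851 promoters. CCAAT was in 30.3% of member promoters and 37.4% of all, TATAAA in 4.49% and 13.6%, AGGTCA in 6.74% and 16.3%, and CACGTG in 7.87% and 7.15%. The median share of G and C was 58.0% in member promoters and 52.7% in all, and its part in these shares was not tested. The shares are per listed promoter, not per gene, and 49 of the 64 members had 1 listed start. These matches describe the letters in the windows.

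Signals are log2 values, and levels are compared only within a gene, since probes of different genes differ in brightness. The median of the negative control rows ran from 5.73 to 6.35 over the arrays. It was exceeded on all 40 arrays by 30 members and on none by 19. A filter (log2 4.60 on at least 4 arrays) left 71 members for testing. Kcna7, Kcne1, Kcne3, Kcne4, Kcng2, Kcnh6, Kcnj1, Kcnj15, Kcnk16, Kcnk18, Kcnk5, Kcnn4, Kcnq1 and Kcnv2 were left out, and 50 members exceeded the filter value on all 40 arrays. A member that passed only through 1 bright region had to differ between regions, so counts over the 71 describe them and support nothing. Below, a difference whose dim side lay near background is also given as a lower bound ("at least"), computed after raising each value to its array's negative control median.

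Marker lists of amygdala, cerebellum, hippocampus and striatum were each highest in the region so labelled, with 6 of 7, 6 of 6, 6 of 7 and 5 of 5 listed genes highest there. The neocortex list was highest in prefrontal cortex (3 of 6 genes), and so was the olfactory bulb list (4 of 4). The olfactory bulb score was 9.83 on average in prefrontal cortex, from 7.71 to 11.57 over its arrays, and between 4.60 and 5.85 in the other regions. Some arrays stood apart from their region's mean score. Ala amygdala replicate 1 was 3.14 higher in the striatum list and 2.77 higher in the cerebellum list, Ala amygdala replicate 2 was 2.07 higher in the choroid plexus list, Ala striatum replicate 36 was 2.68 higher in that list, and Thr hippocampus replicate 23 was 2.24 and replicate 24 was 1.46 higher in the thalamus list. Ala hippocampus replicate 17 and Thr hippocampus replicate 24 were 2.04 and 1.87 higher in the choroid plexus list, and Thr striatum replicate 40 was 2.99 higher in the liver list. In striatum 2 lists separated the genotypes: the liver score ran from 5.54 to 5.97 in Ala and from 7.28 to 9.89 in Thr arrays (0 of 6 genes higher in Ala), and the choroid plexus score from 7.96 to 10.80 in Ala and from 6.64 to 7.46 in Thr arrays (8 of 8 higher in Ala). The part of carried-over tissue in the results below was not tested beyond the values given beside them. In bulk tissue, fewer cells of a type and less RNA per cell cannot be told apart.

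The regions differed widely in these genes, and cerebellum and striatum differed most. A member was called in a region when it differed from the mean of the other 4 regions by at least 1 log2 unit at an adjusted p under 0.05 (limma). For a region other than cerebellum that mean included cerebellum, so a low or high cerebellar level alone moved the difference. In cerebellum 17 members were higher and 27 lower, where 8.69% and 10.1% of all 14978 genes tested were called. In striatum 16 were higher and 16 lower (5.71% and 5.2% of all genes). In amygdala 12 were higher and 8 lower (3.4% and 2.44%), in hippocampus 12 and 4 (3.57% and 2.34%), and in prefrontal cortex 13 and 3 (3.28% and 1.94%). In at least 1 region 54 of 71 members (76.1%) were called, against 25% of all genes. Part of these calls lay at background: with each value raised to its array's negative control median, 14 of the 17 higher and 19 of the 27 lower calls in cerebellum held, 15 of 16 and 15 of 16 in striatum, 11 of 12 and 8 of 8 in amygdala, 10 of 12 and 3 of 4 in hippocampus and 13 of 13 and 2 of 3 in prefrontal cortex, and 47 members were still called in at least 1 region. The shares of all genes called with raised values were not computed, so the counts with raised values describe the members only. The median absolute difference of the members was 1.39 in cerebellum, 0.895 in striatum, 0.555 in amygdala, 0.444 in hippocampus and 0.43 in prefrontal cortex. The same medians over all genes were 0.364, 0.256, 0.196, 0.178 and 0.171. With the olfactory bulb score as a covariate, 3 of the 13 higher calls in prefrontal cortex remained (Kcnf1, Kcnh7 and Kcnv1), and 1 of the 3 lower calls (Kcnab1). Of the 10 higher calls lost, 6 kept differences of 1.37 to 2.93 with larger SEs (Kcnc2, Kcnh3, Kcnh5, Kcnj4, Kcnq5 and Kcnt2), among them Kcnt2 at 2.93 ± 0.94 (adjusted p = 0.078) and Kcnj4 at 2.10 ± 0.63 (adjusted p = 0.0597). Kcnj3 was then 0.65, and Kcnb2, Kcnab3 and Kcnip1 lay between -0.07 and 0.27. That fit extrapolates, because no other region reached the scores of prefrontal cortex.

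**Figure D1:**
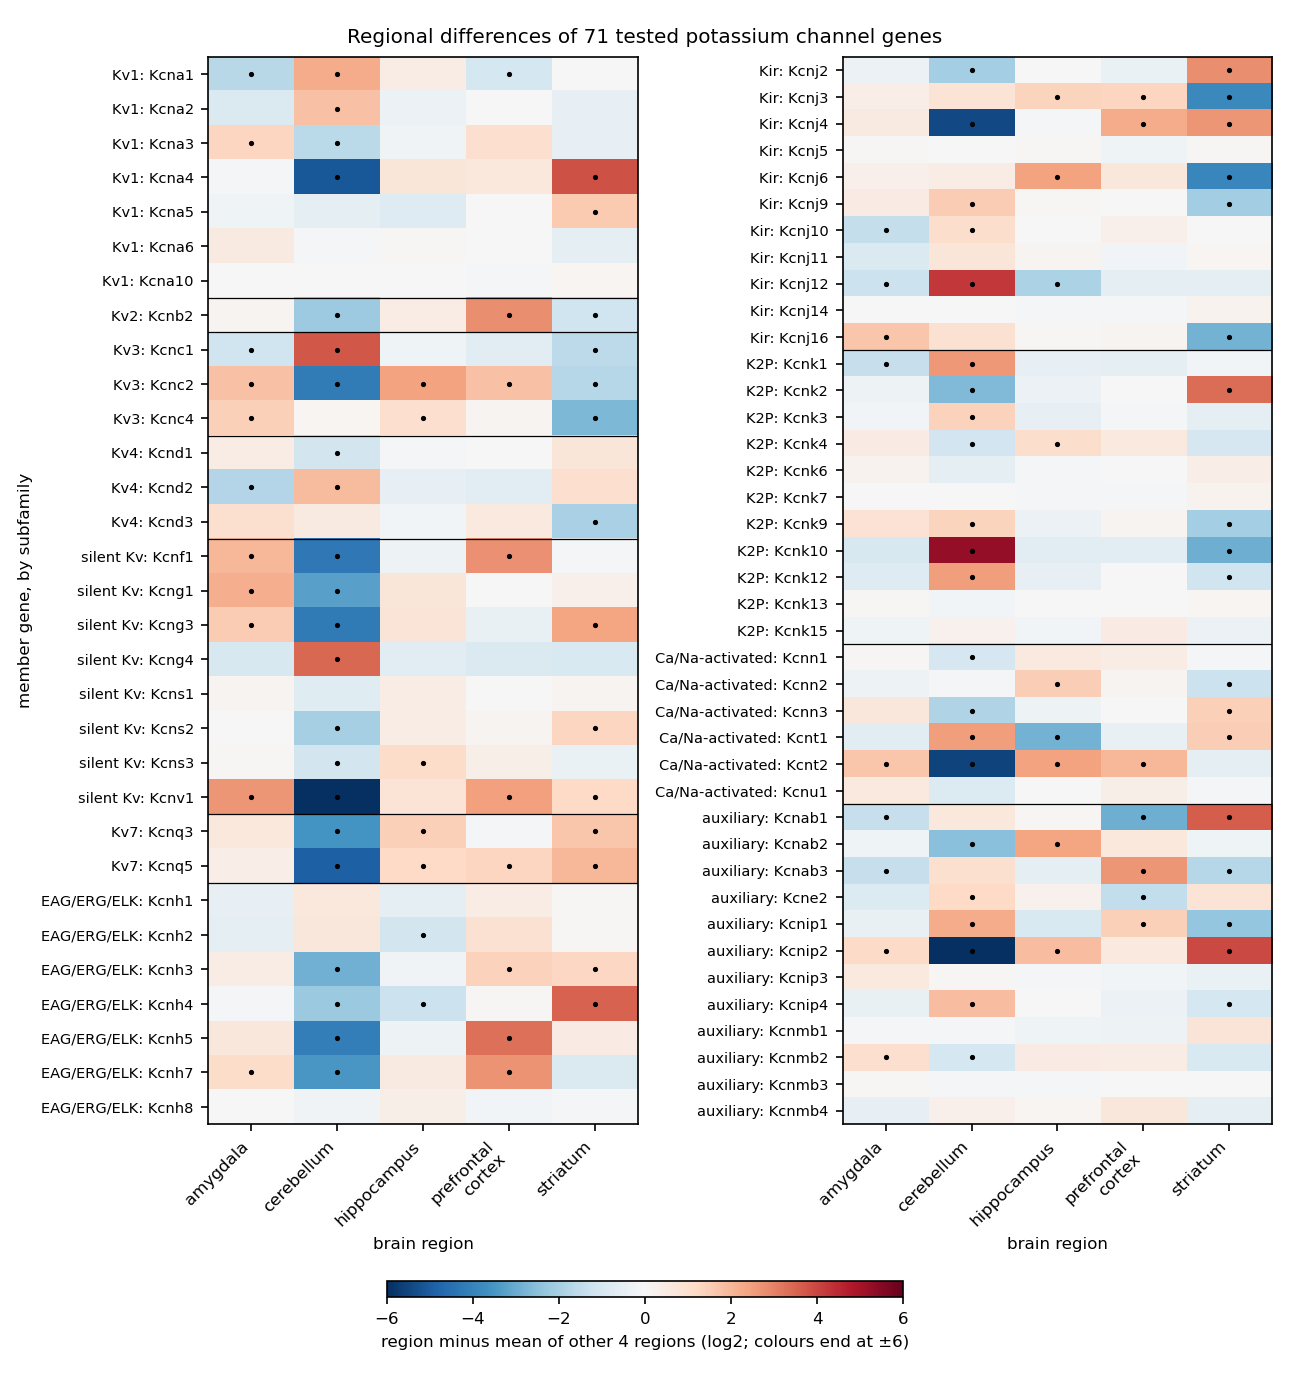
The 71 tested members (rows, by subfamily) in 5 regions (columns); colour gives the log2 difference of a region from the mean of the other 4, and a dot marks a call. Dots are densest in the cerebellum column, with 44 of 71 members, and in the striatum column, with 32.

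Regions were also compared in pairs. Cerebellum differed from striatum in 58 of 71 members (54% of all genes tested), from hippocampus in 57 (50%) and from prefrontal cortex in 52 (50.1%), and amygdala differed from cerebellum in 56 (53.2%), each at an adjusted p under 0.05. Amygdala and prefrontal cortex differed from striatum in 49 members each (37.4% and 33.9%), and hippocampus in 44 (34.8%). The remaining pairs differed least: amygdala from hippocampus in 27 (16.2%), amygdala from prefrontal cortex in 30 (15.5%) and hippocampus from prefrontal cortex in 28 (19.5%). Cerebellum held the highest mean of 19 members and the lowest of 33, and striatum the highest of 20 and the lowest of 19. The calls were also made within each genotype. Of the 44 calls in cerebellum 41 were made in Ala and in Thr arrays alone, and so were 30 of 32 in striatum, 17 of 20 in amygdala, 15 of 16 in hippocampus and 15 of 16 in prefrontal cortex, with 0 in opposite directions.

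Among the Kv1 genes, the delayed rectifiers of axons, Kcna1 and Kcna2 were highest in cerebellum. The lowest, median and highest signal of Kcna1 over the 8 cerebellar arrays were 13.43, 13.58 and 13.83, whereas the highest value in any other region was 12.65, in hippocampus. Kcna1 was 2.23 ± 0.14 (SE) above the mean of the other regions in cerebellum, -1.65 from it in amygdala and -1.05 in prefrontal cortex, the last lost without Ala prefrontal cortex replicate 27 (-0.978) or Thr prefrontal cortex replicate 29 (-0.998), when it was under the minimum of 1, and with the olfactory bulb score as a covariate (-0.74 ± 0.50, adjusted p = 0.498). Kcna2 averaged 12.71 ± 0.15 in cerebellum (SD, n = 8), and its other region means ran from 10.64 to 11.29. Kcna4, whose channels inactivate rapidly, was instead lowest in cerebellum and highest in striatum, with 12.17, 12.54 and 12.78 in striatum and 4.74, 5.44 and 6.07 in cerebellum. No array of one region reached the other, and Kcna4 was 3.80 ± 0.16 higher in striatum and at least 4.19 lower in cerebellum. Amygdala, hippocampus and prefrontal cortex lay between, at means of 9.40 to 10.02. Kcna3 was higher in amygdala (1.28 ± 0.14) and lower in cerebellum (-1.61 ± 0.14). Kcna5 was higher in striatum (1.56 ± 0.12), and at least 1.15 after background was set. Kcna6 passed no region call, at means of 8.51 to 9.41, and Kcna10 stayed at background, with no mean above 4.45.

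Kcnb2, the 1 Kv2 gene that the annotation rule found and a delayed rectifier of cell bodies and dendrites, was highest in prefrontal cortex. Its signals there were 9.98, 11.20 and 12.66, the widest spread of that gene in any region, against 8.80, 9.45 and 9.63 in hippocampus. The olfactory bulb score moved with it: the array with the highest score, Ala prefrontal cortex replicate 27, had the highest Kcnb2. The difference from the other regions was 2.77 ± 0.19, and -0.03 ± 0.51 with the olfactory bulb score as a covariate. In cerebellum Kcnb2 was -2.17 ± 0.19 and in striatum -1.21 ± 0.19 from the mean of the others.

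Kv3 genes encode fast channels that let neurons fire at high rates. Kcnc1 gave 14.68, 15.02 and 15.15 in cerebellum, and no array of another region exceeded 12.11. Its relative Kcnc2 gave 4.49, 5.04 and 6.85 in cerebellum, with 7 of 8 arrays at or below the negative control median, against 10.22, 10.39 and 10.92 in hippocampus. The 2 genes thus lay at opposite ends in cerebellum. Kcnc1 was 3.71 ± 0.11 higher there (adjusted p = 4.87e-29), and Kcnc2 was -4.18 ± 0.17 from the mean of the others (adjusted p = 1.96e-23), a fall of at least 3.01. In the order of Kcnc2 levels, hippocampus and amygdala, and amygdala and prefrontal cortex, did not differ beyond the threshold of the limma fit (adjusted p = 0.115 and 0.99). Kcnc4 averaged 6.53 ± 0.68 in striatum, and between 8.77 and 9.83 elsewhere. All 3 tested Kv3 genes were lower in striatum, by -1.58 for Kcnc1, -1.70 for Kcnc2 and -2.70 for Kcnc4 on the log2 scale.

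Kv4 genes encode the pores of the A-type current of dendrites, which KChIP proteins bind. Kcnd2 signals were 14.11, 14.43 and 14.73 in cerebellum and 13.30, 13.69 and 14.04 in striatum, and 10.91, 11.44 and 12.26 in amygdala. Cerebellum exceeded striatum by 0.73 ± 0.17, and all arrays of both lay above all arrays of amygdala. Kcnd2 was 1.91 ± 0.14 from the other regions in cerebellum and -1.77 ± 0.14 in amygdala. Its relative Kcnd3 was lowest in striatum, at 7.42, 8.04 and 8.40, where no array reached the lowest of the other regions, 8.72 (-1.95 ± 0.13). Kcnd1 lay near background, and its call in cerebellum (-1.09) was lost once background was set (0.22 lower at least).

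The KChIP genes followed neither Kv4 gene as a group. Kcnip2 gave 14.45, 15.13 and 15.49 in striatum, 12.17, 12.72 and 13.49 in amygdala and 5.32, 5.83 and 6.82 in cerebellum, where 6 of 8 arrays were at or below the negative control median. Kcnip2 was 3.95 ± 0.16 higher in striatum and -7.55 ± 0.16 from the other regions in cerebellum (adjusted p = 2.98e-33), the lowest value of any member there and a fall of at least 7.08. Cerebellum thus held the highest Kcnd2 and Kcnip2 near background. Kcnip4 was instead highest in cerebellum, at 16.14, 16.58 and 16.81, and 1.83 ± 0.13 above the other regions, with striatum -1.04. Kcnip1 was higher in cerebellum (2.23 ± 0.17) and prefrontal cortex (1.45 ± 0.17) and lower in striatum (-2.34 ± 0.17). The prefrontal value of Kcnip1 was -0.07 with the olfactory bulb score as a covariate. Kcnip3, which encodes the protein also known as DREAM, passed no call, with region means of 15.11 to 15.92.

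**Figure D2:**
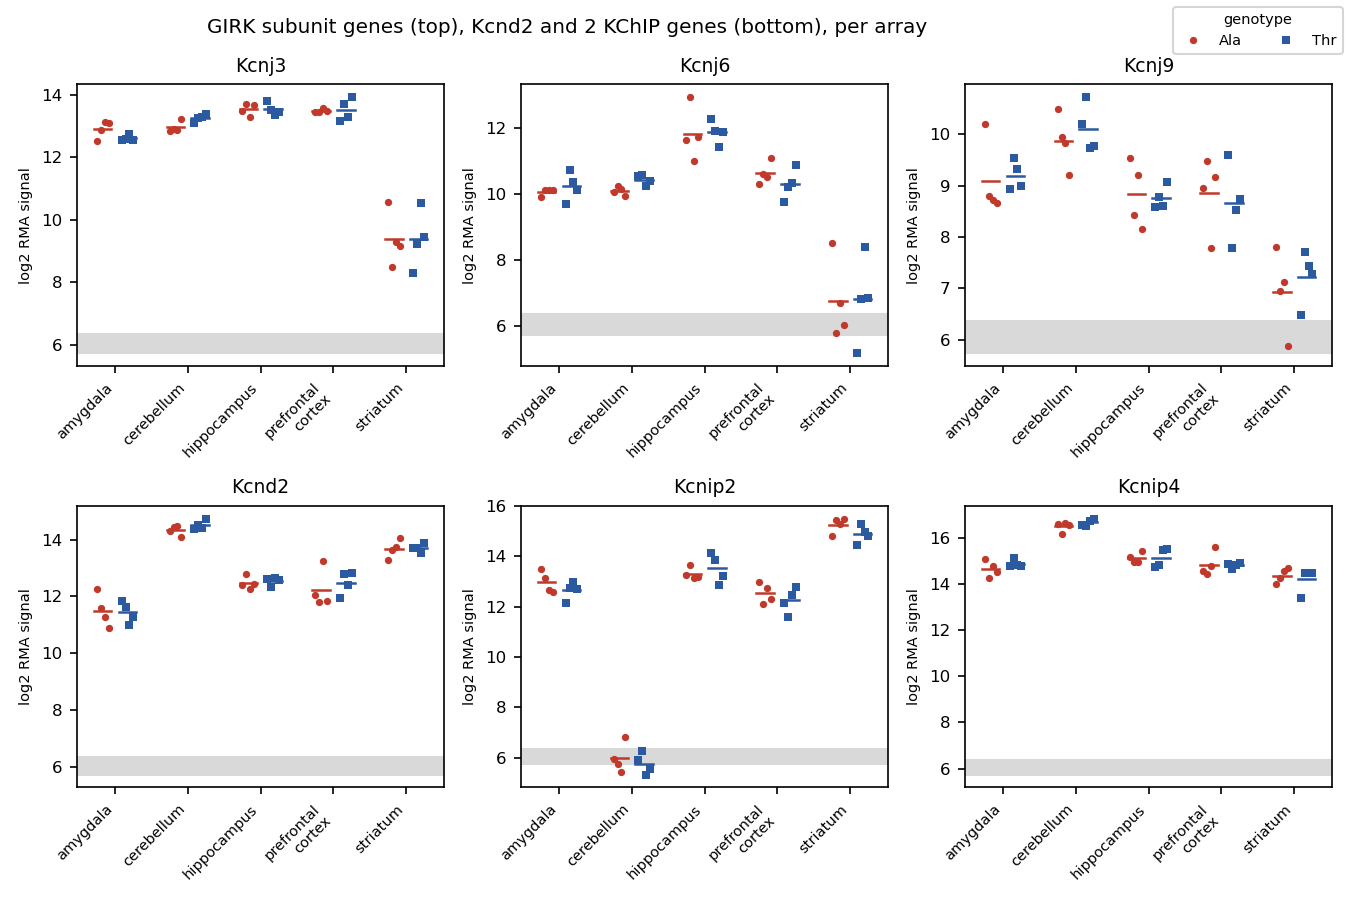
Log2 signal of each array by region for Kcnj3, Kcnj6 and Kcnj9 (top) and Kcnd2, Kcnip2 and Kcnip4 (bottom), with Ala (red circles) left of Thr (blue squares), lines at group means and the range of negative control medians in grey. The top genes fall in striatum, and in cerebellum Kcnip2 sits near the grey band while Kcnd2 and Kcnip4 are at their highest.

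The silent Kv genes encode subunits that form no channel alone and alter Kv2 channels. Of the 8 tested, 6 were lower and 1 higher in cerebellum, and 4 of the 6 held once background was set; Kcns2 (at least 0.87 lower) and Kcns3 (at least 0.40) did not. Kcnv1 gave 4.08, 4.97 and 6.39 in cerebellum, 12.30, 13.00 and 13.45 in amygdala and 12.40, 12.83 and 13.20 in prefrontal cortex. All 32 arrays of the other regions exceeded all 8 of cerebellum, and Kcnv1 was -7.12 ± 0.20 from their mean, a fall of at least 5.97. Hippocampus and striatum averaged 11.48 and 11.77. Against means that included the low cerebellum, Kcnv1 was 2.64 ± 0.20 higher in amygdala and 2.48 ± 0.20 higher in prefrontal cortex. Kcnf1 was likewise high in both, with 2.73 ± 0.17 in prefrontal cortex, 2.00 ± 0.17 in amygdala and a fall of at least 3.36 in cerebellum. Kcng1 was highest in amygdala (8.07, 9.49 and 9.89), 2.19 ± 0.18 above the other regions, and Kcng3 was highest in striatum (8.77, 10.16 and 11.03), 2.38 ± 0.19 above them. The exception was Kcng4, which gave 6.57, 7.54 and 7.92 in cerebellum, whereas no array of another region exceeded 4.49. All 32 of those arrays were at or below their negative control median, so Kcng4 was at least 1.54 higher in cerebellum. Kcns2 was higher in striatum (1.30 ± 0.18), Kcns3 was higher in hippocampus (1.11 ± 0.16), which was 0.90 at least once background was set, and Kcns1 passed no call.

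Kv7 genes encode the M-current, a slow current that holds down repeated firing. Kcnq5 gave 7.37, 7.99 and 9.34 in cerebellum and 13.49, 13.71 and 14.16 in striatum, with no overlap. It was -4.88 ± 0.17 from the other regions in cerebellum and higher in striatum (2.00 ± 0.17), prefrontal cortex (1.29 ± 0.17) and hippocampus (1.17 ± 0.17). Kcnq3 was likewise lower in cerebellum (-3.59 ± 0.15) and higher in striatum (1.67 ± 0.15) and hippocampus (1.43 ± 0.15). Striatum and hippocampus did not differ in Kcnq3 beyond the threshold (hippocampus minus striatum -0.19 ± 0.19, adjusted p = 0.48).

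Of the 7 tested EAG, ERG and ELK genes, relatives of the cardiac ERG channel, 4 were lower in cerebellum. Kcnh4 (-2.24) was no longer called there once background was set (0.19 lower). That value is no bound, because Kcnh4 lay above the negative control median on only 10 of 40 arrays and both sides were raised. Kcnh5 gave 11.55, 11.97 and 12.65 in prefrontal cortex and 5.20, 6.05 and 7.11 in cerebellum. Amygdala was spread over 7.90 to 11.73, and its highest arrays overlapped prefrontal cortex. Kcnh5 was 3.31 ± 0.27 higher in prefrontal cortex, and 2.48 ± 0.96 with the olfactory bulb score as a covariate (adjusted p = 0.159). Kcnh7 gave 11.59, 12.16 and 12.61 in prefrontal cortex and was 2.70 ± 0.17 above the other regions, 2.85 ± 0.60 with that covariate (adjusted p = 0.00643). Kcnh4 was the striatal member, at 7.77, 8.12 and 9.30 there, with no other array above 6.28. It was 3.56 ± 0.17 higher in striatum, and at least 2.24 once background was set. Kcnh3 was higher in prefrontal cortex (1.40 ± 0.15) and striatum (1.25 ± 0.15) and lower in cerebellum (-2.87 ± 0.15). Kcnh2, the ERG pore itself, was lower in hippocampus only, among the 5 region calls (-1.10 ± 0.15), with 7.15, 7.67 and 8.31 over the arrays. Adding the thalamus score, which was highest in cerebellum, gave -0.95, under the minimum, and adding the olfactory bulb score -0.43 (adjusted p = 0.16). Kcnh1 and Kcnh8 passed no call.

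Among the inward rectifiers, the GIRK subunits, which G protein-coupled receptors open, were low in striatum. Kcnj3 gave 8.30, 9.25 and 10.56 in striatum, against 13.28, 13.49 and 13.80 in hippocampus and 12.82, 13.15 and 13.39 in cerebellum. Kcnj6 gave 5.17, 6.76 and 8.50 in striatum, against 11.00, 11.79 and 12.94 in hippocampus and 9.70, 10.13 and 10.73 in amygdala. For both genes every striatal array lay below every other array. Kcnj3 was -3.85 ± 0.16 (adjusted p = 9.56e-23) and Kcnj6 -3.90 ± 0.24 (adjusted p = 2.73e-17) from the other regions in striatum, and Kcnj9 was -2.09 ± 0.22. Within striatum these genes were also uneven: Ala replicate 33 had 10.56, 8.50 and 7.81 in Kcnj3, Kcnj6 and Kcnj9, and Thr replicate 39 had 10.53, 8.38 and 7.43. Those 2 arrays were the highest of the 8 in Kcnj3 and Kcnj6, and also in the neocortex score, 0.77 and 0.64 above the region's mean. Kcnj6 was higher in hippocampus (2.43 ± 0.24) and Kcnj9 in cerebellum (1.54 ± 0.22). Kcnj5, the GIRK subunit best known from heart atria, was near background, at means of 4.65 to 4.91.

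The Kir2 genes, which encode strong rectifiers, split between cerebellum and striatum. Kcnj12 gave 10.75, 10.97 and 11.27 in cerebellum and nowhere else above 7.70. Kcnj4 gave 2.47, 2.81 and 3.56 in cerebellum, under the negative control median on all 8 arrays, against 8.75, 9.43 and 9.89 in striatum and 8.39, 9.07 and 9.63 in prefrontal cortex. Their promoters, printed above, held 0 and 4 GC boxes in the order Kcnj12, Kcnj4. In cerebellum Kcnj12 was 4.24 ± 0.16 higher (adjusted p = 9.71e-25), and Kcnj4 was -5.39 ± 0.17 from the other regions (adjusted p = 3.21e-27), a fall of at least 2.01. Kcnj12 was also lower in hippocampus (-1.90 ± 0.16) and amygdala (-1.27 ± 0.16). Kcnj4 was higher in striatum (2.67 ± 0.17, at least 1.82) and prefrontal cortex (2.25 ± 0.17, at least 1.40), and Kcnj2 was higher in striatum, where it gave 6.55, 7.49 and 8.01 and was at least 1.41 above the other regions.

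Kcnj10 and Kcnj16 encode the rectifier of glia that clears potassium. Kcnj10 gave 11.45, 11.78 and 12.13 in cerebellum and 9.12, 9.95 and 10.28 in amygdala, and was 1.04 ± 0.13 and -1.41 ± 0.13 from the other regions there, the second -0.97 and no longer called with the olfactory bulb score as a covariate. The mean score of the astrocyte list was 13.44 in cerebellum, its highest region, and 12.43 in amygdala, and that of the oligodendrocyte list was 12.14 in cerebellum and 9.85, its lowest, in amygdala. Kcnj16 did not follow Kcnj10: it was higher in amygdala (1.65 ± 0.16) and lower in striatum (-2.83 ± 0.16), with 6.13, 7.03 and 7.62 over the striatal arrays. The astrocyte score was also lowest in striatum, at 11.72. The part of glial content in these differences was not tested. Kcnj11, the pore of ATP-sensitive channels, passed no call, at means of 6.18 to 7.44, nor did Kcnj14.

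K2P genes gave the widest contrast upward. Kcnk10 gave 13.08, 13.29 and 13.37 in cerebellum, 8.00, 8.42 and 8.93 in hippocampus and 6.29, 6.68 and 7.29 in striatum. Every cerebellar array exceeded every array of the other regions, and the SD among the 8 was 0.10. Kcnk10 was 5.27 ± 0.14 higher in cerebellum (adjusted p = 5.23e-30), the highest value of any member in any region comparison, and -2.93 ± 0.14 from the other regions in striatum. Kcnk2, which with Kcnk10 belongs to the TREK group of mechanically and lipid-gated channels, had the opposite pattern. Its signals were 11.62, 12.10 and 12.92 in striatum, 9.17, 9.50 and 9.78 in prefrontal cortex and 6.98, 7.34 and 7.67 in cerebellum, with no overlap between these regions. Kcnk2 was 3.34 ± 0.14 higher in striatum and -2.67 ± 0.14 from the others in cerebellum. Kcnk4, the remaining TREK-group gene, was higher in hippocampus (1.07) and lower in cerebellum (-1.16), both under 1 once background was set (0.81 and 0.52 at least).

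Of the 8 other tested K2P genes, Kcnk1, Kcnk9, Kcnk3 and Kcnk12 were called higher in cerebellum, and Kcnk3 and Kcnk12 fell below the minimum of 1 once background was set. Kcnk1 gave 15.35, 15.73 and 15.97 in cerebellum, 2.61 ± 0.10 above the other regions, and 11.89, 12.57 and 13.08 in amygdala (-1.37 ± 0.10). Kcnk9 and Kcnk3 encode the acid-sensitive TASK pores. Kcnk9 was higher in cerebellum (1.32 ± 0.15) and lower in striatum (-2.02 ± 0.15), and Kcnk3 was higher in cerebellum (1.39, at least 0.96). Kcnk12, a member of the THIK pair, was higher in cerebellum (2.49, at least 0.95), with 32 of 32 arrays of the other regions at or below background. Kcnk13, the second of that pair, passed no call, and neither did Kcnk6, Kcnk7 and Kcnk15.

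Among the calcium- and sodium-activated genes, the sodium-activated pair split. Kcnt1 gave 12.58, 12.74 and 12.96 in cerebellum, 11.53, 11.98 and 12.36 in striatum and 7.52, 8.63 and 9.18 in hippocampus. Kcnt2 gave 2.98, 4.44 and 6.58 in cerebellum and 10.29, 10.83 and 11.29 in hippocampus. Hippocampus was thus lowest in Kcnt1 and had the highest mean of Kcnt2, where it did not differ from prefrontal cortex beyond the threshold (by 0.34, adjusted p = 0.561). In cerebellum Kcnt1 was 2.50 ± 0.16 higher, and Kcnt2 was -5.55 ± 0.26 from the others, a fall of at least 3.68. In hippocampus Kcnt1 was -2.82 ± 0.16 and Kcnt2 2.42 ± 0.26 from the other regions. Among the SK genes, which encode calcium-activated channels of small conductance that follow the action potential, Kcnn2 was higher in hippocampus (12.90, 13.15 and 13.34; 1.49 ± 0.12) and lower in striatum (-1.30 ± 0.12). Kcnn3 was higher in striatum (1.41 ± 0.14) and lower in cerebellum (-1.79, at least 0.88), and Kcnn1 was lower in cerebellum (-1.02 ± 0.11). Kcnu1, known from sperm, passed no call, at means of 6.27 to 7.38.

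**Figure D3:**
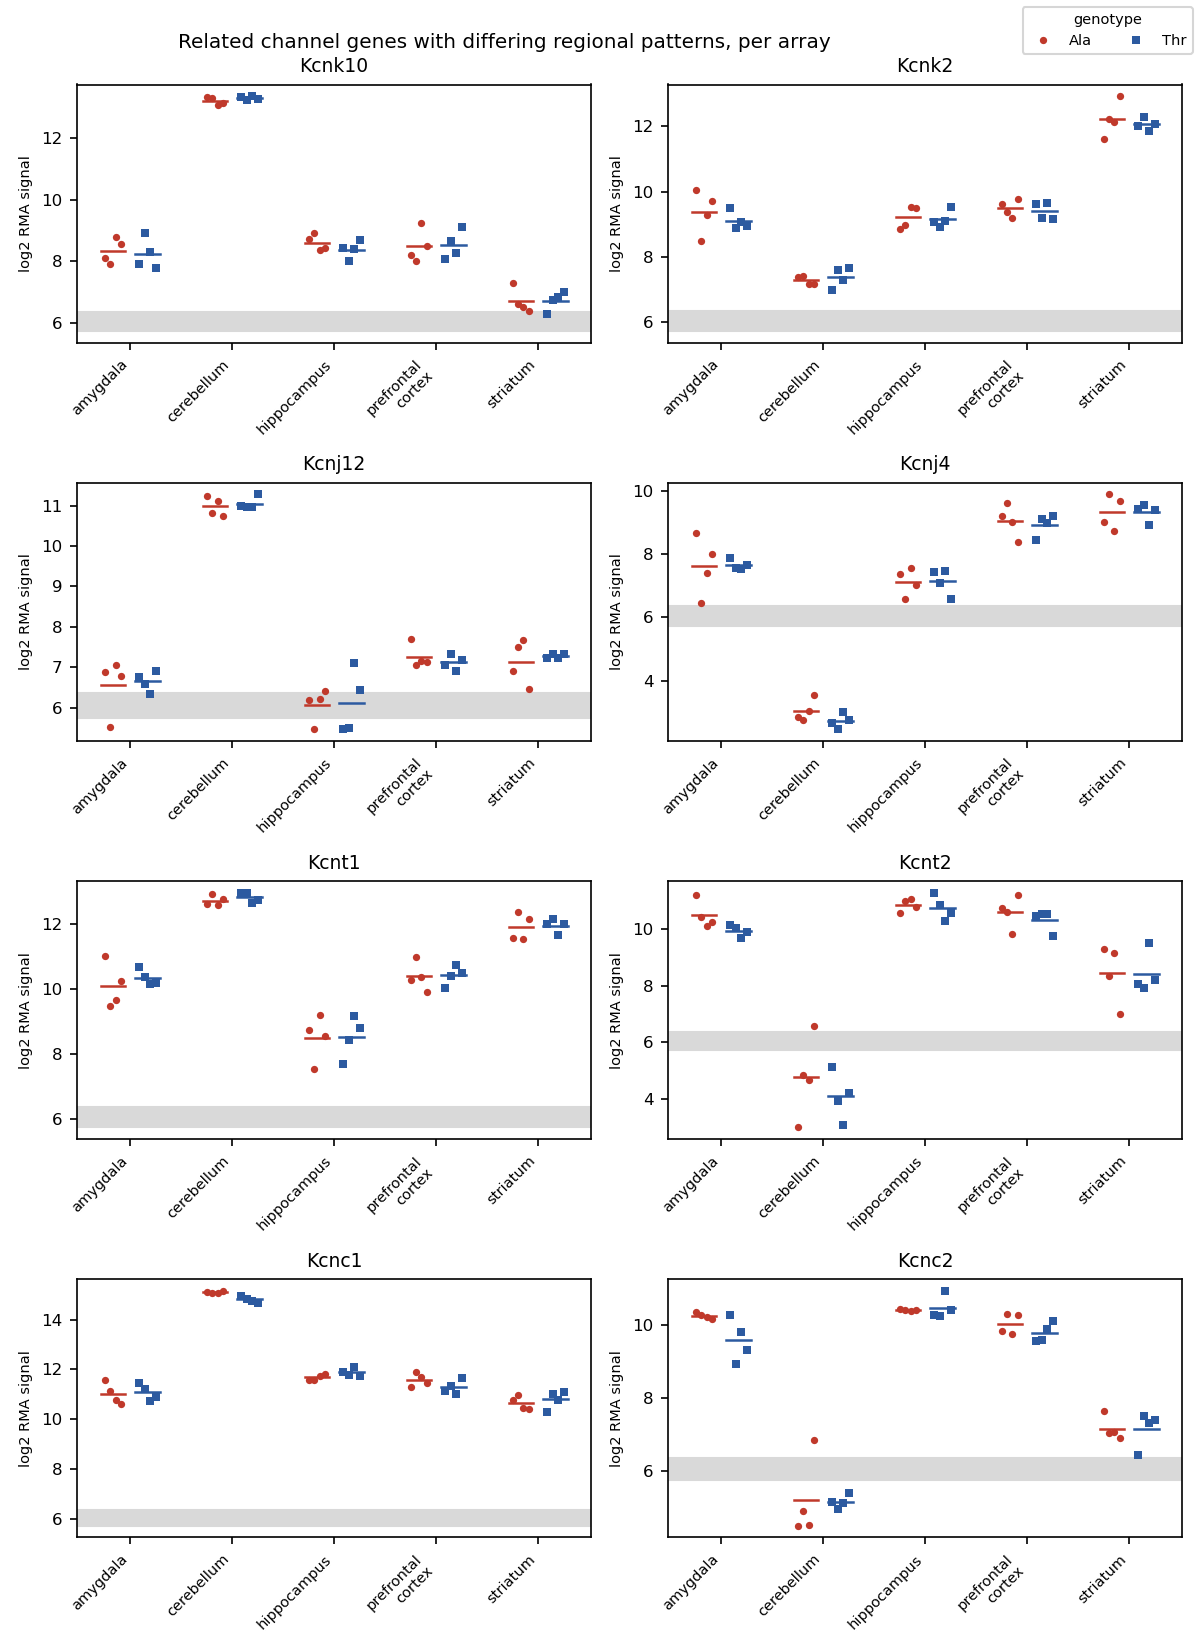
Log2 signal of each array by region for 4 pairs of related genes (Kcnk10 and Kcnk2, Kcnj12 and Kcnj4, Kcnt1 and Kcnt2, Kcnc1 and Kcnc2), with Ala (red circles) left of Thr (blue squares), lines at group means and the range of negative control medians in grey. In each pair the left gene is at its highest in cerebellum, and the right gene is at its lowest there.

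The Kvβ genes, whose cytoplasmic subunits bind Kv1 pores, each had a region of its own. Kcnab1 gave 15.77, 16.06 and 16.64 in striatum, 11.58, 12.02 and 13.21 in amygdala and 10.17, 10.82 and 11.83 in prefrontal cortex. All 5 regions differed from their neighbours in the order of its levels, striatum first, then cerebellum, hippocampus, amygdala and prefrontal cortex. The highest amygdala value, 13.21, came from Ala replicate 1, the array with the raised striatum score. Kcnab1 was 3.65 ± 0.14 higher in striatum, and -2.95 ± 0.14 from the other regions in prefrontal cortex. Kcnab2 was higher in hippocampus (15.68, 16.05 and 16.23; 2.37 ± 0.11) and lower in cerebellum (-2.50 ± 0.11). Kcnab3 was higher in prefrontal cortex (7.73, 8.46 and 9.42; 2.64 ± 0.22, at least 2.19), and 0.27 ± 0.69 with the olfactory bulb score as a covariate.

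Of the BK β genes, which tune the large calcium-activated channel, Kcnmb2 was higher in amygdala (1.02) and lower in cerebellum (-1.07), and neither passed once background was set. Kcnmb1, Kcnmb3 and Kcnmb4 passed no call. Kcne2, an auxiliary subunit known from the choroid plexus, varied most within regions. Its signals ran from 3.59 to 7.21 in cerebellum and from 3.74 to 8.92 in striatum. It was called higher in cerebellum (1.21 ± 0.42) and lower in prefrontal cortex (-1.48 ± 0.42), and neither call held once background was set (0.42 and -0.39). Only 8 of the 40 arrays lay above their negative control median, 4 of them in cerebellum. Both sides were therefore raised, and neither value is a bound. With the choroid plexus score in the model the cerebellar and prefrontal differences were 0.01 ± 0.24 and 0.40 ± 0.27, and that score did not include Kcne2.

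**Figure D4:**
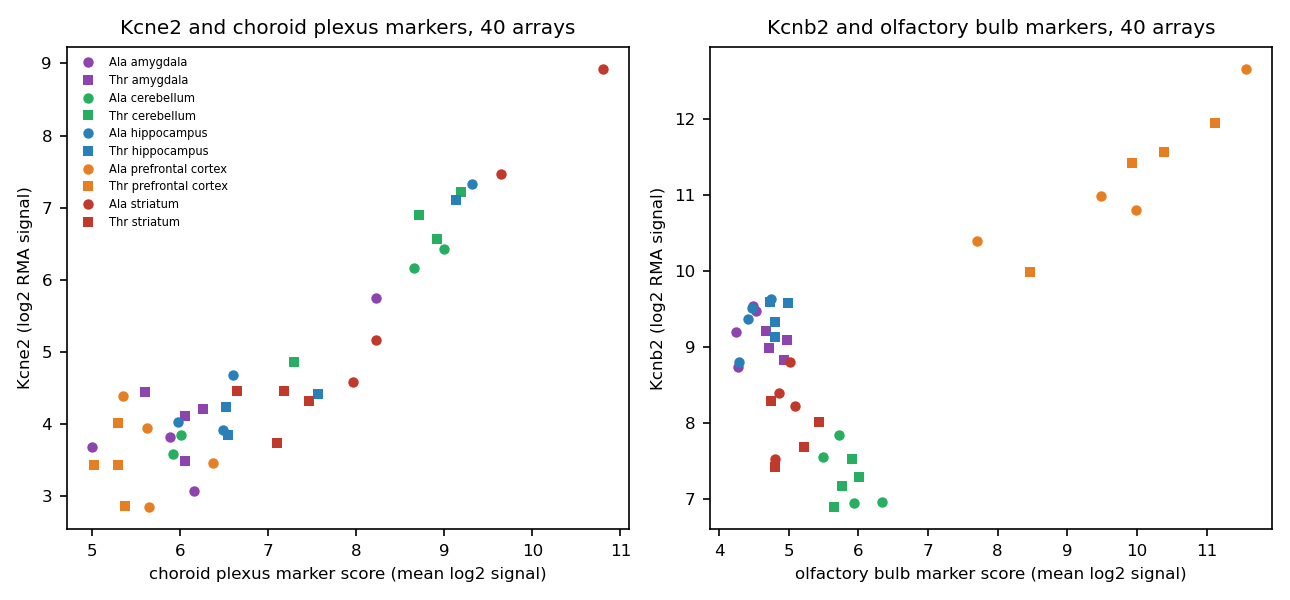
Kcne2 against the choroid plexus marker score (left) and Kcnb2 against the olfactory bulb marker score (right) on 40 arrays, with region by colour and circles for Ala and squares for Thr. The y axes give the gene's log2 signal on each array, and the x axes the mean log2 signal of the list's genes. The highest Kcne2 value, 8.92, is on the array with the highest choroid plexus score (Ala striatum replicate 36), and the prefrontal arrays stand alone at the right of the Kcnb2 plot.

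The second question was whether these genes differed between Ala and Thr mice. Differences are Ala minus Thr on the log2 scale. None of the 71 members passed an adjusted p of 0.05 (limma) in amygdala, cerebellum, hippocampus, prefrontal cortex or striatum, where 0.12%, 0%, 0%, 0% and 0.0801% of all genes tested did. None passed in the mean of the 5 regions (0.02%) or in the test of whether the difference varied between regions (0.0401%). At an unadjusted p under 0.05 there were 6 members in amygdala (5.33% of all genes), 2 in cerebellum (1.94%), 1 in hippocampus (3.14%), 2 in prefrontal cortex (2.33%), 5 in striatum (6.14%) and 6 in the mean (5.37%). In the mean over regions the 95% interval stayed within 1 log2 unit of 0 for 71 of 71 members and within 0.5 for 63. In single regions it stayed within 1 unit for 57 members in amygdala, 63 in cerebellum, 66 in hippocampus, 62 in prefrontal cortex and 58 in striatum. The median difference of the members lay between -0.01 in hippocampus and 0.05 in amygdala, and 39, 38, 33, 41 and 38 of 71 were positive in amygdala, cerebellum, hippocampus, prefrontal cortex and striatum.

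**Figure D5:**
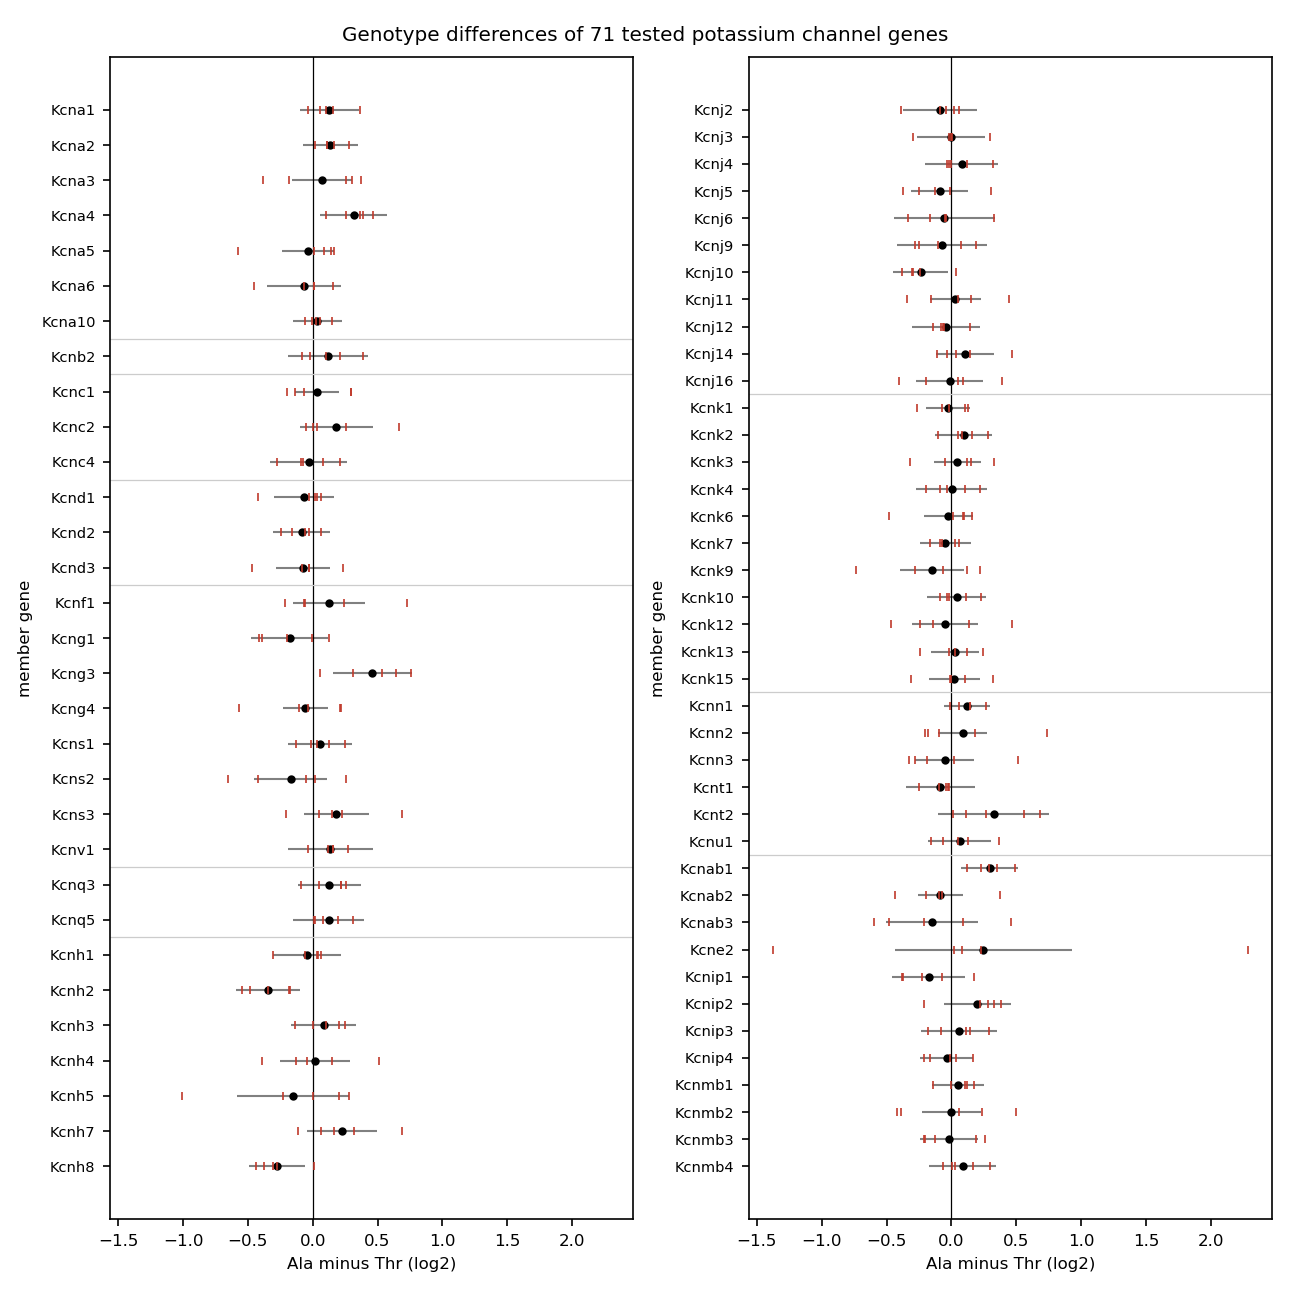
Ala minus Thr (log2) for the 71 tested members: black points and grey bars give the mean over 5 regions with its 95% interval, and red ticks give the 5 regions. The interval stays within 1 log2 unit of 0 for all 71 tested members, and the most distant ticks belong to Kcne2.

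In the mean over regions the smallest unadjusted p belonged to Kcng3, Kcnh2 and Kcnab1. Kcng3 averaged 8.42 in Ala and 7.96 in Thr arrays, a difference of 0.46 ± 0.15 with an interval of 0.15 to 0.77 (adjusted p = 0.832), and was positive in 5 of 5 regions. Kcnh2 averaged 8.38 in Ala and 8.73 in Thr arrays (-0.35 ± 0.12, adjusted p = 0.849), negative in 5 of 5 regions. Kcnab1 averaged 13.34 in Ala and 13.05 in Thr arrays (0.30 ± 0.11, adjusted p = 0.849), positive in 5 of 5. In all, 6 members were positive and 2 negative in every region (8.45% and 2.82% of members tested, against 4.71% and 3.27% of all genes tested). Without the 5 arrays apart (Ala amygdala 1 and 2, Thr hippocampus 23 and 24, Ala striatum 36) Kcnab1 differed by 0.18, and with the thalamus score as a covariate Kcnh2 differed by -0.20.

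In amygdala the smallest unadjusted p belonged to Kcnn2, an SK pore. It gave 11.70, 13.00, 11.93 and 11.68 in Ala arrays and 11.02, 11.29, 11.69 and 11.35 in Thr arrays. The groups overlapped by 1 Thr array, and the value of 13.00 was from Ala replicate 2, whose hippocampus score was also 1.22 above the region's mean. The difference was 0.74 ± 0.21 (adjusted p = 0.289), and 0.43 without Ala replicate 2. Kcnk9 gave 9.73, 9.96, 10.46 and 10.63 in Ala and 10.81, 10.65, 11.14 and 11.12 in Thr arrays, without overlap (-0.74 ± 0.27, adjusted p = 0.719), and by -0.39 without Ala replicates 1 and 2 and the other arrays apart. Kcns3 differed by 0.69 ± 0.28 (adjusted p = 0.827).

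In cerebellum Kcng4 gave 7.18, 7.54, 7.22 and 6.57 in Ala and 7.92, 7.53, 7.64 and 7.68 in Thr arrays. The groups overlapped, and the difference was -0.57 ± 0.19 (adjusted p = 1). With values raised to the negative control median, an alternative added after the data were seen, Kcng4 passed (adjusted p = 0.0271), with the same difference and an SE of 0.11. All arrays of the other regions were at or below that median, so raising them replaced their spread, which the SE shares. The cerebellar values did not change, and that pass therefore adds no support for a difference. Kcnf1 differed there by 0.72 ± 0.31, by 0.41 without Thr replicate 16 and by 0.02 once background was set. Kcne2 gave 6.43, 3.59, 6.17 and 3.84 in Ala and 6.57, 4.87, 6.90 and 7.21 in Thr arrays, -1.38 ± 0.75, and -0.25 ± 0.39 with the choroid plexus score in the model; it was -0.91 without Ala replicate 10. In hippocampus the smallest p belonged to Kcnh7 (0.69 ± 0.30), Kcnd3 (-0.47 ± 0.23) and Kcnh2 (-0.48 ± 0.27), each with an adjusted p of 1. The 2 highest Thr values of Kcnh2, 8.31 and 8.02, were on replicates 23 and 24, which had the raised thalamus scores, and with that score as a covariate Kcnh2 differed by -0.03 and Kcnd3 by -0.73.

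In prefrontal cortex Kcna5 gave 5.71, 5.74, 5.52 and 5.52 in Ala and 6.28, 5.97, 6.15 and 6.40 in Thr arrays. The groups did not overlap, the Ala values all lay within the range of negative control medians or below it, and the difference was -0.58 ± 0.22 (adjusted p = 1). Raised to background, that difference was -0.29. Kcng3 (0.76 ± 0.34) and Kcna4 (0.47 ± 0.28) were next. Kcng3 was 0.41 without Ala replicate 28 and 0.46 without Thr replicate 30, and Kcna4 was 0.17 without Ala replicate 27, and 0.31 and 0.76 when Thr replicates 29 and 32 were left out singly. In striatum Kcne2 gave 7.46, 4.58, 5.17 and 8.92 in Ala and 4.47, 4.33, 3.74 and 4.46 in Thr arrays. All Ala arrays exceeded all Thr arrays, by 2.29 ± 0.75 (adjusted p = 0.656), and the difference was 0.24 ± 0.42 with the choroid plexus score in the model. Kcnk6 (-0.48 ± 0.21, at background) and Kcnab2 (-0.43 ± 0.19) followed. Without Ala replicate 36, Kcne2 differed by 1.49 and Kcnab2 by -0.28. The liver score, as its deviation from the region's mean, was also used as a covariate, added after the data were seen. Kcne2 then differed by 3.04, Kcnk6 by -1.08 and Kcnab2 by -0.03 (limma adjusted p from 0.982 to 0.998), and 0 members were called in striatum. Because that score separated the genotypes in striatum, the fit could hardly tell it from genotype, and the lack of calls decides nothing.

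Arrays of the 2 genotypes did not overlap for 2 members in amygdala (Kcnk9 and Kcnk12; 3.19% of all genes tested), 1 in cerebellum (Kcnc1; 2.66%), 0 in hippocampus (2.73%), 1 in prefrontal cortex (Kcna5; 1.66%) and 2 in striatum (Kcne2 and Kcnk6; 1.98%). Kcnk12 was at or below the negative control median on every amygdala array, and so was Kcnk6 on every striatal array. Kcnc1 in cerebellum gave 15.12, 15.08, 15.08 and 15.15 in Ala and 14.97, 14.84, 14.76 and 14.68 in Thr arrays, 0.29 ± 0.19 (adjusted p = 1). Members on the chromosome of Dio2, chromosome 12 in GRCm38.p6, were Kcnk10, Kcnk13, Kcnh5, Kcnf1 and Kcns3. Kcnk10, with 7 measured genes between it and Dio2, differed by 0.04 ± 0.11, and Kcnk13, with 16 between, by 0.03 ± 0.09 in the mean over regions.

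A list of 22 partners and relatives outside the naming rule was described beside the members, and 19 of the 21 on the array were tested. None was called between genotypes. Called higher and lower were 2 and 4 of the 19 in cerebellum (8.69% and 10.1% of all genes tested) and 3 and 1 in prefrontal cortex (3.28% and 1.94%). There were 1 and 2 in amygdala (3.4% and 2.44%), 1 and 1 in hippocampus (3.57% and 2.34%), and 1 and 1 in striatum (5.71% and 5.2%). With 19 genes these counts are too small to set against the shares, and the genes below are described singly. Abcc8, the sulphonylurea receptor that completes the ATP-sensitive channel, was 2.45 ± 0.13 higher in cerebellum, while the change of its pore Kcnj11 there was 0.71 ± 0.12, under the minimum of 1. Lrrc55, a BK γ subunit, was 2.91 ± 0.23 higher in prefrontal cortex and was -2.35 ± 0.23 in cerebellum. Dpp10, which joins Kv4 complexes, was higher in amygdala (1.27 ± 0.21) and prefrontal cortex (1.39 ± 0.21), and was -2.00 ± 0.21 in hippocampus and -1.59 ± 0.21 in striatum. Cntnap1, at the axonal paranode, was 1.46 ± 0.11 higher in cerebellum, where Kcna1 and Kcna2 were at their highest, whereas Cntnap2, which clusters Kv1 channels beside it, was -2.21 ± 0.16 there. Lgi1, a secreted partner of Kv1 complexes, was 1.27 ± 0.11 higher in hippocampus. Among the pacemaker genes, which carry the current that potassium channels oppose at rest, Hcn2 was -1.04 ± 0.12 in amygdala and Hcn4 1.25 ± 0.20 in prefrontal cortex.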

How the data were processed

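Total RNA was measured on 40 arrays. The authors deposited log2 values made with RMA, per the submitters' processing notes (its version is not given in the sources used here), a method that subtracts background, equalizes the arrays' distributions and combines probes; no scaling was added, and array medians lay between 6.12 and 6.32. Of 28846 rows, 19572 had 1 gene symbol; the row with the highest mean was kept for each gene. No 2 arrays were identical.

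A mean for each of 10 groups was fitted to the 14978 genes above log2 4.60 (the 30th percentile) on at least 4 arrays with limma 3.58.1 in R 4.3.3 (lmFit, eBayes with a trend, 30 residual degrees of freedom). Adjusted p-values are Benjamini-Hochberg over all genes tested, and the number of arrays limits precision. The script was tested on simulated data.

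Members, lists and tests were chosen with earlier results of these data known. Named genes were, per region, up to 4 called members in each direction with the largest differences, the 3 smallest p per genotype contrast, and the widest range per subfamily. Alternatives covered normalization, filter, spread, thresholds, tissue scores and omitted arrays. Scores are means of a list's genes. Promoters came from RefSeq. Protein sequences were not used here.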

Additional observations from a re-analysis of the deposited data

Results flagged for a closer look

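Dixon's test was applied to the 36 named members in 10 groups, and 20 of 360 sets of 4 arrays held a value far from the other 3. Chance flags about 1 in 20 such sets.

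In cerebellum, Ala replicate 12 was high in both Kcnv1 (6.39, the others 4.59 to 4.87) and Kcnc2 (6.85, the others 4.49 to 4.89), and its neocortex marker score was 1.14 above the region's mean. Ala replicate 9 was low in Kcnh7 (6.85). Among the Thr cerebellar arrays, replicate 13 was high in Kcnq5 (9.08, the others 7.89 to 7.99) and replicate 16 in Kcnj12 (11.27, the others 10.96 to 10.98). Replicate 14 was low in Kcng1 (4.37) and Kcnk6 (3.53), and replicate 15 was high in Kcna5 (5.71). These values of Kcng1, Kcnk6 and Kcna5 lay below their arrays' negative control medians, as did the other Ala values of Kcnv1 and Kcnc2. The values of Kcnv1 and Kcnc2 on Ala replicate 12 lay above that array's median of 6.35. The cause of these spreads was not tested.

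In amygdala, Ala replicate 1, the array with the raised striatum and cerebellum scores, was low in Kcnj6 (9.90). Thr replicate 5 was low in Kcnv1 (12.44) and high in Kcnk6 (5.13, below its negative control median). Thr replicate 6 was low in Kcnab2 (13.24), and Thr replicate 7 was high in Kcnj3 (12.74). In striatum, Ala replicate 36, the array with the raised choroid plexus score, was low in Kcnd3 (7.42), and Thr replicate 37 was high in Kcna5 (7.92, the others 6.88 to 6.96) and low in Kcnc2 (6.43).

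In prefrontal cortex, Ala replicate 25 was high in Kcnj12 (7.70), Ala replicate 27, with the highest olfactory bulb score, was high in Kcnj3 (13.57), and Thr replicate 32 was low in Kcnt2 (9.75). In hippocampus, Thr replicate 24, with a raised choroid plexus score, was high in Kcna5 (5.79, the others 4.98 to 5.10 and below their negative control medians).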

How the results depend on the processing

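No paired analysis was possible because the groups share no replicate numbers. Of the values of named members under all alternatives, 3278 kept their direction and their side of the threshold, 23 lost the call, 1 gained it and 3 turned. Kcne2 in prefrontal cortex turned to 0.40 with the choroid plexus score in the model. With the olfactory bulb score as a covariate, an alternative chosen after seeing the data, Kcnb2 in prefrontal cortex was -0.026 and the higher calls there numbered 3, in place of 13, although 6 of the 10 lost kept differences of 1.37 to 2.93 with larger SEs. With values raised to the negative control median, also chosen after seeing the data, Kcnk6 in striatum turned to 0.035 (Ala minus Thr). In that setting 1 member passed between genotypes in cerebellum (Kcng4, -0.57). Its difference was unchanged and its SE was smaller because the arrays of the other regions were set to background. The cause of the other changes was not tested.

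Thresholds moved the counts by their own construction. With a minimum difference of 2, higher and lower calls numbered 3 and 0 in amygdala, 4 and 1 in hippocampus, 7 and 1 in prefrontal cortex and 9 and 8 in striatum, and 9 were higher in cerebellum. With the adjusted p alone they numbered 24 and 19 in amygdala, 23 and 14 in hippocampus and 26 and 11 in prefrontal cortex, with 26 higher in cerebellum and 28 lower in striatum. Over all alternatives other than single omitted arrays, lower calls in cerebellum numbered 19 to 31 and higher calls in striatum 9 to 20. The shares of all genes at these 2 thresholds were not computed, so the counts describe the members only. Leaving out each array in turn gave 0 genotype calls each time. Higher and lower calls then ran from 11 to 13 and 8 to 10 in amygdala, 16 to 18 and 26 to 27 in cerebellum, 11 to 12 and 4 to 5 in hippocampus, 13 to 15 and 2 to 3 in prefrontal cortex, and 16 to 18 and 15 to 17 in striatum.

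With 4 arrays a group and no link from arrays to animals, differences under about 1 log2 unit in a single region are poorly resolved, and levels at or below the negative controls give only bounds.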

Other observations

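Some arrays were the highest or the lowest of their region's 8 in many members. Ala striatum replicate 36 was so in 32 of the 71 tested members (45.1%, against 43.7% of all genes tested). Ala amygdala replicate 1 was so in 31 (43.7%, against 30.4% of all genes), Ala amygdala replicate 2 in 31 (43.7%, against 24.7%) and Ala cerebellum replicate 12 in 31 (43.7%, against 28.5%). In Ala amygdala replicate 1, Kcnip2, Kcna4, Kcnab1 and Kcnh4, which were at their highest in striatum, gave 13.49, 10.06, 13.21 and 5.97, each the highest of the 8 amygdala arrays.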
